A study of Mus musculus with 2 samples.

Results

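The transcripts of 8 interferon-induced genes, Ifit1, Ifit3, Isg15, Irf7, Iigp1, Gbp2, Rsad2 and Usp18, were followed through the cell types of healed mouse wound dermis. The genes were chosen by symbol, and all 8 were found among the 27998 gene rows of the count tables. They gave 43929 unique molecular identifiers (UMIs, each 1 captured transcript molecule) among control cells and 19964 among SM22-SmoM2 cells. Control cells came from SM22rtTA; tetO-Cre; R26-Tomato mice and the others from SM22rtTA; tetO-Cre; R26-SmoM2/Tomato mice, all 4–5 weeks old. In both genotypes the promoter of SM22, the gene Tagln, drives rtTA, which switches on Cre under doxycycline (20 g/kg of food, from day 1 after wounding), and Cre then turns on the red protein Tomato. In SM22-SmoM2 mice it also turns on SmoM2, a constitutively active form of Smoothened, the signal carrier of the Hedgehog (Hh) pathway. The dermis was collected once wounds had been fully re-epithelialized for 3 days, and its Tomato+ cells were sorted, so that a cell enters the data through the activity of the transgenes and not through its type. Each library pooled wounds of several mice, and there was 1 library per genotype. No test between genotypes was therefore possible, and differences between genotype, library and mice cannot be told apart.

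Interferons are secreted alarm proteins that are made when a cell senses foreign or misplaced nucleic acids. Type I interferons bind the receptor of Ifnar1 and Ifnar2, and the signal ends at interferon-stimulated response elements in the promoters of target genes. Interferon gamma, made mainly by T cells and natural killer cells, acts through a receptor of its own. In skin wounds, interferon signals are known to come with early inflammation. The 8 genes stand for different arms of this response. Ifit1 and Ifit3 encode proteins that recognise foreign RNA, Isg15 a ubiquitin-like protein that is attached to other proteins or secreted, and Usp18 the protease that removes Isg15 and dampens the type I receptor. Irf7 is a transcription factor that amplifies type I interferon production, and Rsad2 encodes viperin, an antiviral enzyme. Iigp1 and Gbp2 encode GTPases of the immunity-related and guanylate-binding families, both strongly induced by interferon gamma.

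RefSeq promoters (GRCm38.p6, the 250 bases before the annotated start) were at hand for 6 of the 8 genes, all but Iigp1 and Usp18. The core of the response element was searched on both strands as GAAA, any 2 bases and GAAA, which reads TTTC, any 2 bases and TTTC on the other strand. It was found in 5 of the 6 promoters, those of Ifit1, Ifit3, Isg15, Gbp2 and Rsad2, and in 978 of all 32851 promoters (2.98%). The 4 shown here are those of Ifit1 and Isg15, whose ratio to each other set some cell groups apart, and of Gbp2 and Rsad2, whose ratio to each other differed widely between cell types. Capitals mark the core.
Ifit1, chr19:34640639-34640888, + strand: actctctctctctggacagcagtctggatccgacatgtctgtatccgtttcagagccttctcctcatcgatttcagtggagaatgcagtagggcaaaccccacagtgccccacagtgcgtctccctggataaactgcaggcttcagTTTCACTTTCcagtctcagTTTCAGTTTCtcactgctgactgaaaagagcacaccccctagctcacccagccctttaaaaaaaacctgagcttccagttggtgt
Isg15, chr4:156200819-156201068, − strand: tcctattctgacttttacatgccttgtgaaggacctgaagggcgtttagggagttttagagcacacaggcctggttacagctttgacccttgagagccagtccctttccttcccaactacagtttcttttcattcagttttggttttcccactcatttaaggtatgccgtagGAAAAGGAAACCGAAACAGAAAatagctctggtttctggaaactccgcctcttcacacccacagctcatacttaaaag
Gbp2, chr3:142620413-142620662, + strand: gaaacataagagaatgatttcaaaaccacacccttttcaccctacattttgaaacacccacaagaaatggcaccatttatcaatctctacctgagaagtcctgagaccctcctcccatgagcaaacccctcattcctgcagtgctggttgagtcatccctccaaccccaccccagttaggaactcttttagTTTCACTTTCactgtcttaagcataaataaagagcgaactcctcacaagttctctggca
Rsad2, chr12:26456453-26456702, − strand: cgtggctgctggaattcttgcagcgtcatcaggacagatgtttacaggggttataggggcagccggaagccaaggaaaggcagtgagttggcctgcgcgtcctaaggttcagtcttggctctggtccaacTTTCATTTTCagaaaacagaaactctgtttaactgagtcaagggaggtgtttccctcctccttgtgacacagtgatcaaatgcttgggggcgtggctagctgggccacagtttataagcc
The Ifit1 promoter held the core at 104 and 85 bases before the start and that of Ifit3 at 156 and 122 bases. In Isg15, 3 overlapping copies began 78, 72 and 66 bases before the start. Gbp2 and Rsad2 each had 1 copy, at 59 and 120 bases. No copy lay in the 250 bases before Irf7, and a gamma-activated site searched as TTCNNNGAA was in 0 of the 6 promoters, against 7.02% of all promoters. Ifit1 and Ifit3 lie close together on chromosome 19, and Ifit3 has a near-identical copy, Ifit3b, so that its UMIs are uncertain. Irf7 overlaps Phrf1, Gbp2 overlaps Mir6381 and Usp18 overlaps the lincRNA Gm44148, each on the opposite strand.

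The control library held 2856 cells and the SM22-SmoM2 library 1792 cells after cells with more than 10% mitochondrial UMIs were left out, with medians of 8607.5 and 8837.5 UMIs per cell. Cells were clustered without 93 listed genes of the interferon pathway, and clusters were named from marker lists. Endothelial cells (Pecam1, Cdh5, Kdr) numbered 695 in the control and 264 in the SM22-SmoM2 library, fibroblasts (Pdgfra, Lox, Dpt) 1104 and 1050, Schwann cells (Mbp, Sox10, S100b) 677 and 294, muscle or mural cells, called muscle cells here (Myh11, Rgs5, Notch3), 283 and 100, and immune cells (Ptprc, Cd68, H2-Aa) 81 and 32. The 7 immune markers summed to 51641 and 30369 UMIs per 1000000 UMIs of the same cells (CPM) in immune cells and to between 33.2 and 163 CPM in the other 4 cell types. The 7 endothelial markers summed to 5449 and 4812 CPM in endothelial cells and to 73.4 and 65.8 CPM in fibroblasts. The 7 fibroblast markers were less confined, at 56448 and 34436 CPM in fibroblasts. They summed to 5877 and 5471 CPM in Schwann, 5519 and 5460 CPM in muscle and 3608 and 6466 CPM in immune cells. In endothelial cells they had 1269 and 1119 CPM. The source of these UMIs was not tested. As a check of the genotype labels, the Hh target Ptch1 stood at 12.04 CPM among control fibroblasts and at 142 CPM among SM22-SmoM2 fibroblasts, and Gli1 had 5.95 and 30.8 CPM. Smo, from which SmoM2 derives, had 52.0 and 56.1 CPM in fibroblasts. Ptch1 differed less in the other large cell types, at 14.9 and 19.9 CPM in endothelial cells and 7.99 and 28.2 CPM in muscle cells. In Schwann cells it had 13.2 and 18.8 CPM, with intervals that overlapped. Gli1 had 4 and 5 UMIs there, or 0.849 and 2.48 CPM, also with overlapping intervals. The check therefore holds for fibroblasts, and in Schwann cells these counts do not decide whether the Hh targets differed. All levels are given in CPM. Intervals in parentheses are 95%, exact Poisson for levels, exact conditional for ratios and Clopper-Pearson for shares of cells, and cover counting error only.

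Endothelial cells carried the most interferon-induced transcripts in both libraries. In endothelial cells the 8 genes summed to 3095 CPM (control) and 2687 CPM (SM22-SmoM2). Immune cells came next, with 1877 and 2089 CPM, and the endothelial level was 1.65 and 1.29 times theirs. It was 1.99 and 1.46 times the level of muscle cells. Fibroblasts had 556 and 871 CPM, so that the endothelial level was 5.56 times the fibroblast level in the control library (log2 ratio 2.48, 2.44 to 2.51) and 3.08 times in the SM22-SmoM2 library (1.62, 1.58 to 1.67). In the control library all 8 genes were at least 2-fold higher in endothelial cells than in fibroblasts, where 23.8% of all genes were. In the SM22-SmoM2 library 7 of 8 were, against 20.3% of all genes, with Isg15 the exception.

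Rsad2 and Iigp1 set endothelial cells apart from fibroblasts most. Rsad2, the viperin gene, had 145 CPM in control endothelial cells and 4.90 CPM in control fibroblasts, a 29.5-fold difference (log2 ratio 4.88, 4.54 to 5.25), and 133 and 6.09 CPM in the SM22-SmoM2 library (4.45, 4.08 to 4.84). Iigp1 had 810 CPM in endothelial cells and 52.8 CPM in fibroblasts of the control library, a 15.3-fold difference, and 670 and 56.7 CPM in the SM22-SmoM2 library. Isg15 differed least, with 935 CPM in endothelial cells and 281 CPM in fibroblasts of the control library (1.73, 1.68 to 1.79), and 926 and 546 CPM in the other (0.76, 0.69 to 0.83). Irf7 lay between these, at 525 and 71.5 CPM in the control library.

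**Figure D1:**
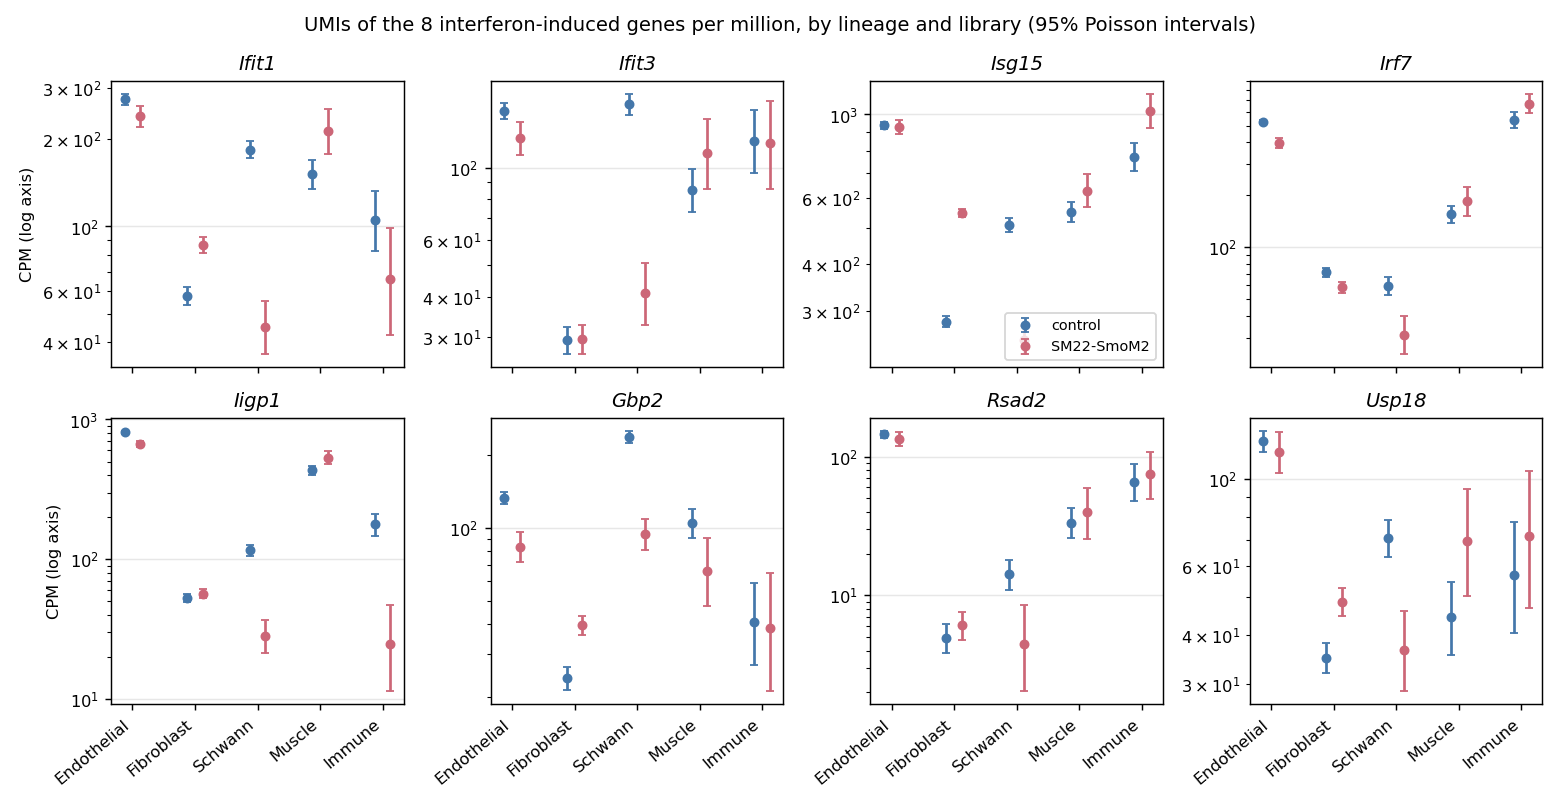
Levels of each of the 8 genes in CPM (log axis) in 5 cell types of the control (blue) and SM22-SmoM2 (red) library, with 95% Poisson intervals of the counting error. Rsad2 and Iigp1 separate endothelial cells from fibroblasts most, and in Schwann cells the SM22-SmoM2 level lies below the control level for each gene.

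The order of cell types was not the same for each gene. For Ifit3, control Schwann and endothelial cells were level at 157 and 149 CPM (log2 ratio endothelial over Schwann −0.07, −0.20 to 0.06), and for Gbp2 Schwann cells were higher, at 237 and 133 CPM (−0.84, −0.96 to −0.72). For Irf7, Iigp1 and Rsad2 the same 2 cell types differed the other way, by log2 ratios of 3.14, 2.81 and 3.35, and 3 of 8 genes were at least 2-fold higher in endothelial cells, against 22% of all genes. Irf7 was at 540 CPM in control immune cells, level with endothelial cells (−0.04, −0.19 to 0.12), and at 671 CPM in SM22-SmoM2 immune cells, above the 396 CPM of endothelial cells. Isg15 was at 1024 CPM in SM22-SmoM2 immune cells, level with the 926 CPM of endothelial cells (−0.15, −0.30 to 0.02). Muscle cells stood out for Iigp1, with 432 CPM in the control and 534 CPM in the SM22-SmoM2 library, the level closest to that of endothelial cells.

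RNA set free by broken cells gives UMIs in cells that do not make a transcript, and none of these cell types can be taken to lack interferon-induced genes. The ratios between genes are therefore given as well. What part of any level came from such RNA was not tested. In the control library there were 1.09 Rsad2 UMIs per Gbp2 UMI in endothelial cells (1.00 to 1.19), 0.205 in fibroblasts (0.156 to 0.266) and 0.0600 in Schwann cells (0.0462 to 0.0768). Iigp1 UMIs per Isg15 UMI were 0.866 in endothelial, 0.785 in muscle and 0.188 in fibroblast cells. The lowest summed levels of any cluster with at least 30 cells were 116 CPM in control cluster 11 (Thbs4, Cst6) and 196 CPM in control cluster 7 (Dlk1, Sfrp2), both fibroblasts.

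Between the genotypes, Schwann cells showed the largest difference when the sexes were pooled. Their 8 genes summed to 1345 CPM (control) and 532 CPM (SM22-SmoM2), a log2 ratio of SM22-SmoM2 over control of −1.34 (−1.43 to −1.24). Between male cells alone the fibroblast difference was the larger, at 1.43 against −0.81 in Schwann cells. Between female cells the values were −1.90 in fibroblasts and −2.02 in Schwann cells. Over all Schwann cells, each of the 8 genes was lower in the SM22-SmoM2 library, and 6 were at least 2-fold lower, against 4.99% of all genes. Ifit1 had 184 CPM in the control and 45.1 CPM in the SM22-SmoM2 library (−2.03, −2.35 to −1.71). Iigp1 had 115 and 28.2 CPM (−2.03, −2.45 to −1.64), and Ifit3 had 157 and 41.1 CPM (−1.93, −2.27 to −1.60). The ratio was nearer 0 for Isg15, at 508 and 251 CPM (−1.02), and for Gbp2, at 237 and 94.1 CPM (−1.33). Irf7 and Usp18 were short of 2-fold, at −0.93 and −0.95. Rsad2 rested on 67 and 9 UMIs (−1.67, −2.86 to −0.66). Cxcl10, an interferon-induced chemokine singled out after its values were seen, had no such difference in Schwann cells, with 305 CPM in the SM22-SmoM2 library and a log2 ratio of −0.04 (−0.18 to 0.09).

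In endothelial cells the libraries differed little. The summed log2 ratio was −0.20 (−0.24 to −0.16), and 0 of 8 genes passed 2-fold in either direction, against 7.27% of all genes. Over all endothelial cells the 8 values lay below 0, from −0.01 for Isg15 (935 and 926 CPM) to −0.67 for Gbp2 (133 and 83.5 CPM, −0.90 to −0.44). The median of all genes was −0.08. The intervals of Isg15, Rsad2 and Usp18 included 0.

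Fibroblasts differed in the other direction, with 556 CPM in the control and 871 CPM in the SM22-SmoM2 library (0.65, 0.60 to 0.69). This direction depended on the sex of the cells, and it turned to −1.90 between female fibroblasts and to −0.45 with the sexes weighted equally. Most of this was Isg15, at 281 and 546 CPM (0.96, 0.90 to 1.01). Without it the other 7 genes summed to 275 and 325 CPM (0.24, 0.18 to 0.31). Gbp2 (0.73, 0.53 to 0.94), Ifit1 (0.58, 0.45 to 0.72) and Usp18 (0.47, 0.30 to 0.65) were higher, Irf7 was lower (−0.29, −0.43 to −0.15), and Ifit3, Iigp1 and Rsad2 had intervals that included 0. None of the 8 genes passed 2-fold over all fibroblasts, against 14.9% of all genes. The fibroblasts of the 2 libraries lay largely in different clusters, with 84.3% of control fibroblasts in clusters 4, 5 and 7 and 69.6% of SM22-SmoM2 fibroblasts in clusters 6, 8 and 9. In muscle cells, the sum was 1555 CPM in the control and 1845 CPM in the SM22-SmoM2 library (0.25, 0.15 to 0.35), with 0 of 8 genes past 2-fold (11.7% of all genes) and Gbp2 lower (−0.65, −1.18 to −0.16). This small muscle difference changed sign with a stricter mitochondrial filter. In immune cells only Iigp1 passed 2-fold, at 178 and 24.8 CPM from 122 and 9 UMIs, against 20.5% of all genes, and cluster 18, led by Cd74 and H2-Aa, held 38 control cells and 3 SM22-SmoM2 cells.

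**Figure D2:**
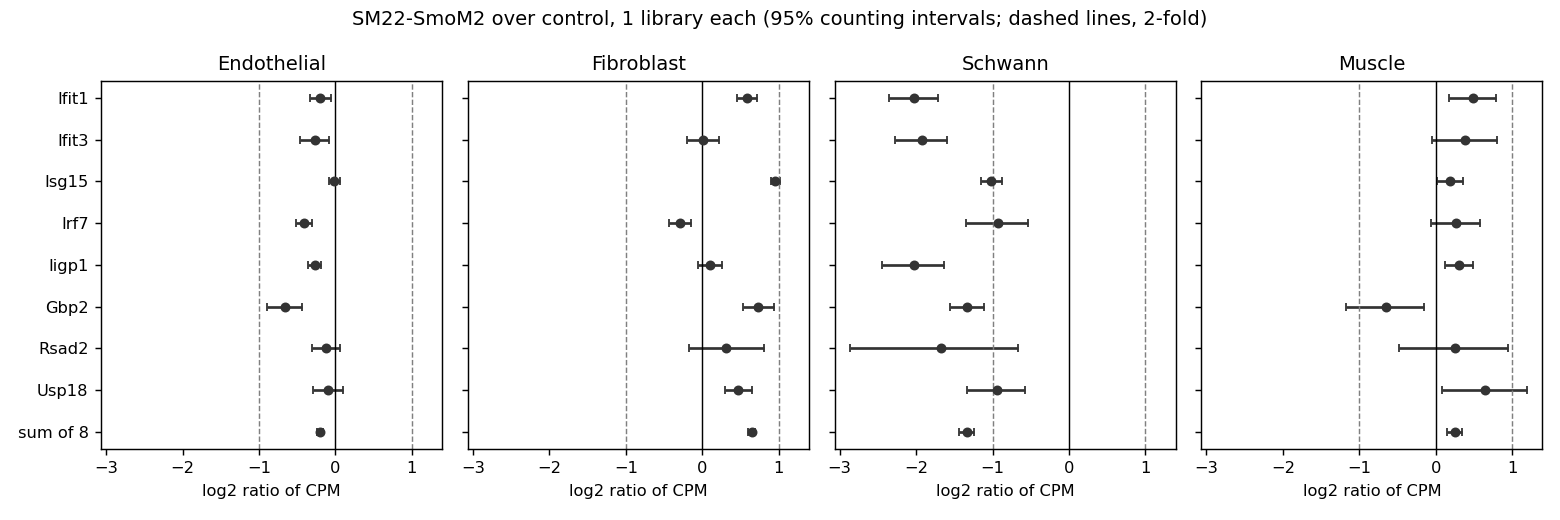
Log2 ratio of CPM, SM22-SmoM2 over control, for each of the 8 genes and their sum in 4 cell types, with 95% counting intervals, a solid line at 0 and dashed lines at 2-fold. All 8 Schwann values lie below 0, while in fibroblasts Isg15 lies highest and Irf7 lowest.

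Clusters split the cell types further. Among endothelial cells, cluster 2 had the lowest sum, 2091 CPM in the control and 1747 CPM in the SM22-SmoM2 library. Its leading genes were headed by Ccl21a and Fabp4, with Ackr1, a marker of venules, further down, and it was not assigned to a vessel type. Cluster 1 (Ccl21a, Lrg1, Emcn, Plvap, which were leading genes of cluster 2 too) had 3710 and 3563 CPM. Cluster 3 (Cldn5, Rbp7, Gpihbp1, the last a capillary gene) had 3112 and 2580 CPM. Rsad2 differed most between them, with 36.9 and 34.4 CPM in cluster 2 against 190 and 229 CPM in cluster 1. Among endothelial clusters Irf7 was highest in cluster 3, at 750 and 598 CPM. The summed log2 ratio of the genotypes was −0.06 in cluster 1, −0.26 in cluster 2 and −0.27 in cluster 3. In cluster 1, Ifit3, Isg15, Usp18 and Rsad2 (0.27, 0.05 to 0.49) lay above 0, and Ifit1, Irf7, Iigp1 and Gbp2 below. Among Schwann cells, cluster 12 (Gfra3, Fabp7) had 2527 CPM in the control library, near the endothelial level, and 967 CPM in the SM22-SmoM2 library (−1.39, −1.52 to −1.25). The value was below 0 in all 4 Schwann clusters, at −1.50 in cluster 13 (Sostdc1, Fgf5), −0.46 in cluster 14 (Mbp) and −0.81 in the cycling cluster 15.

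Fibroblast clusters that held 30 or more cells from both libraries gave log2 ratios of 0.11 in cluster 4 (Crabp1, Prss35), 1.06 in cluster 5 (Mmp3, Mfap4), 0.94 in cluster 6 (Penk, Clec3b; 36 control cells) and −0.01 in the cycling cluster 10. In clusters 8 and 9, nearly all cells came from the SM22-SmoM2 library. Cluster 9 (Penk, Il1rl1, Areg) had 1071 CPM, of which Isg15 made up 806 CPM, while cluster 8 (Wif1, Egfl6) had 350 CPM. Among fibroblast clusters, these 2 also stood out for the balance between Isg15 and Ifit1. There were 20.5 Isg15 UMIs per Ifit1 UMI in cluster 9 (16.8 to 25.4; 2032 and 99 UMIs) and 12.9 in cluster 8 (9.54 to 17.9). In the other fibroblast clusters the ratio lay between 3.46 and 7.60, and in endothelial clusters between 2.60 and 4.33. Cluster 20, an unnamed group of 51 SM22-SmoM2 cells led by the agouti gene a, Ibsp and Cd24a, had 32.5 (14.7 to 89.6), from 195 Isg15 and 6 Ifit1 UMIs. Schwann cluster 13 of the SM22-SmoM2 library had a ratio of 14 (6.54 to 35.7), from 98 Isg15 and 7 Ifit1 UMIs. Schwann cluster 15 of that library had 14.6 (7.44 to 32.5), from 131 and 9 UMIs. SM22-SmoM2 immune cells had 15.46 Isg15 UMIs per Ifit1 UMI (10.2 to 24.4).

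**Figure D3:**
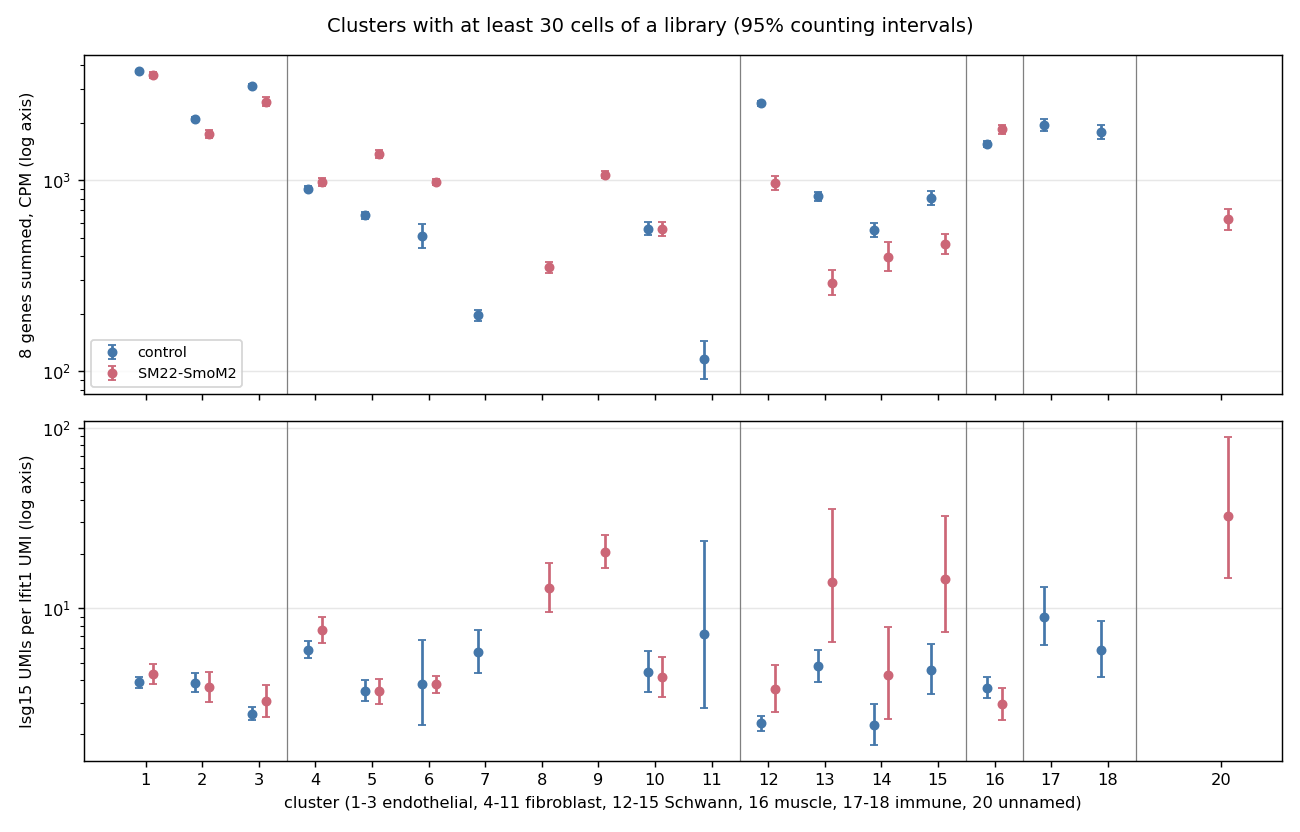
Summed level of the 8 genes in CPM (top, log axis) and Isg15 UMIs per Ifit1 UMI (bottom, log axis) in clusters with at least 30 cells of a library, control in blue and SM22-SmoM2 in red, with 95% counting intervals. Endothelial clusters 1 and 3 lie highest in both libraries, at 2580 to 3710 CPM. In the SM22-SmoM2 library the ratio stands at 12.9 to 32.5 in clusters 8, 9 and 20. It is 14 and 14.6 in Schwann clusters 13 and 15 of that library.

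Each library held cells of male and of female mice, told apart by UMIs from the Y chromosome (Uty, Kdm5d, Ddx3y or Eif2s3y) or of Xist, the RNA of the inactive X chromosome. Control cells were 1454 male, 729 female and 673 with neither call, and SM22-SmoM2 cells 1134, 244 and 414. Any such UMI was enough for a call, and RNA from broken cells can give it too. How many calls were wrong was not tested. Male and female cells came from different animals, so that sex and mouse cannot be told apart. In control fibroblasts the 8 genes summed to 333 CPM in 653 male cells and 1404 CPM in 223 female cells, a log2 ratio of female over male of 2.08 (2.01 to 2.15). In the control library 7 of 8 genes were at least 2-fold higher in female fibroblasts, against 5.01% of all genes. Isg15 had 161 and 741 CPM, Ifit1 30.3 and 158 CPM and Iigp1 30.02 and 136 CPM, and Gbp2 differed least, at 21.4 and 36.2 CPM (0.76). In the SM22-SmoM2 library the order was the other way, with 896 CPM in 784 male fibroblasts and 377 CPM in 46 female fibroblasts (−1.25, −1.48 to −1.03), and 4 of 8 genes at least 2-fold lower in female cells, against 7.42% of all genes. In the other direction 16.3% of all genes passed 2-fold. The 4 were Isg15, Ifit1, Irf7 and Gbp2, with only 82, 18, 8 and 7 UMIs in female cells.

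The sexes made up unequal shares of the fibroblasts, 20.2% female in the control and 4.38% in the SM22-SmoM2 library, and the comparison of genotypes turned with them. In the SM22-SmoM2 library 29.5% of endothelial, 32.3% of Schwann and 21% of muscle cells were called female. Wrong calls would weigh most on the few female SM22-SmoM2 fibroblasts. Between male fibroblasts alone, SM22-SmoM2 over control was 1.43 (1.37 to 1.49), or 2.69-fold, and between female fibroblasts alone −1.90 (−2.13 to −1.67). Among male fibroblasts Isg15 (1.80), Ifit1 (1.49), Usp18 (1.26) and Iigp1 (1.05) were at least 2-fold higher, 4 of 8 genes against 7.53% of all genes. Male fibroblasts were higher in the SM22-SmoM2 library within cluster 4 (1.01), cluster 5 (1.39) and cluster 10 (1.05) as well. Female fibroblasts were too few for this, with 112 control and 7 SM22-SmoM2 cells in cluster 4 and 78 and 3 in cluster 5. Of female SM22-SmoM2 fibroblasts, 41.3% lay in cluster 6 and 23.9% in cluster 8, against 4.04% and 3.14% of female control fibroblasts. The female value thus compares cells largely of different clusters. So does the male value over all fibroblasts. Clusters 6, 8 and 9 held 26.5%, 24.4% and 20.8% of male SM22-SmoM2 fibroblasts, against 2.30%, 0% and 0.919% of male control fibroblasts. The female level in the control library was the higher one within cluster 4 (1.59, 1.48 to 1.69; 155 male and 112 female cells) and cluster 5 (1.44, 1.31 to 1.57). Cluster 7, with a low level, held 32.9% of male and 2.69% of female control fibroblasts.

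In Schwann cells of the control library, female cells had 2067 CPM and male cells 1015 CPM (1.03, 0.94 to 1.11), with 6 of 8 genes at least 2-fold higher in female cells, against 4.41% of all genes. In SM22-SmoM2 Schwann cells the values were 509 and 579 CPM (−0.19, −0.39 to 0.02). The lower sum in SM22-SmoM2 Schwann cells was present in both sexes, at −0.81 (−0.95 to −0.67) in male and −2.02 (−2.20 to −1.86) in female cells. In male cells it did not extend to each gene, and Irf7 (0.08, −0.51 to 0.66), Usp18 (0.03, −0.53 to 0.56) and Rsad2 (−0.07, −1.73 to 1.40) had intervals that included 0. In the clusters where male Schwann cells of both libraries could be compared, it was −1.13 in cluster 12, −0.78 in cluster 13, −0.59 in cluster 15 and −0.04 (−0.44 to 0.35) in cluster 14. Muscle cells turned with sex as fibroblasts did, at 0.36 between male and −0.84 between female cells of the genotypes, with 21 female SM22-SmoM2 cells. Within the control library, 4 of 8 genes were at least 2-fold higher in female muscle cells, against 4.39% of all genes. In the control library, endothelial cells varied least with sex among these 4 cell types. Female endothelial cells had 3801 CPM and male cells 2892 CPM in the control library (0.39, 0.35 to 0.43), and 3156 and 2507 CPM in the SM22-SmoM2 library (0.33, 0.25 to 0.42). The genotypes there differed by −0.21 between male and −0.27 between female cells.

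**Figure D4:**
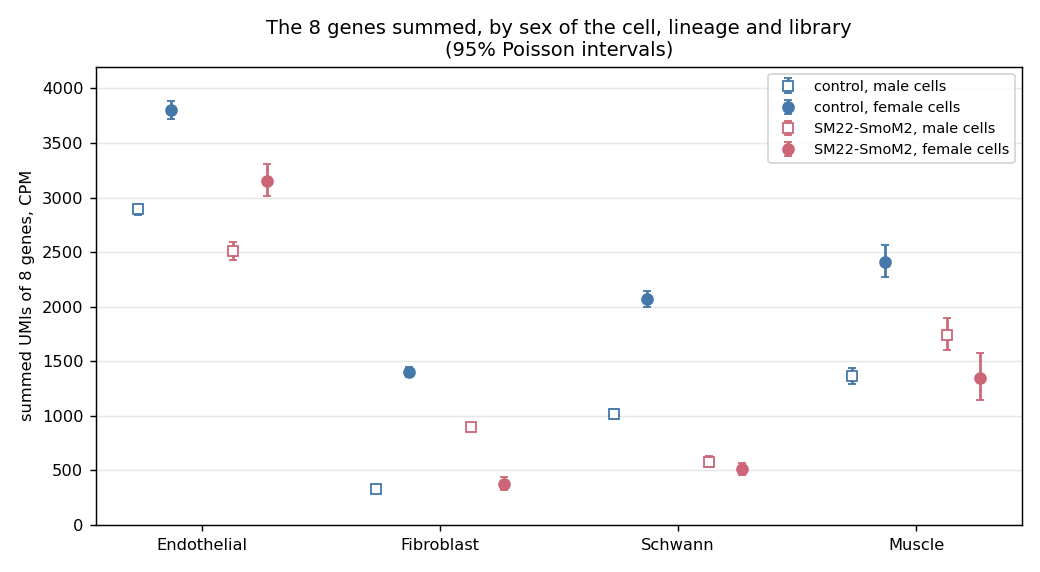
Summed level of the 8 genes in CPM in male (open squares) and female (filled circles) cells of 4 cell types, control in blue and SM22-SmoM2 in red, with 95% Poisson intervals. Female cells lie above male cells in the control library in all 4 cell types, and in the SM22-SmoM2 library only in endothelial cells.

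The genes were then followed cell by cell. To compare cells of different depth, each was thinned at random to 2500 UMIs, below the 2538 UMIs of the shallowest cell. Isg15 was detected in 75.8% of control endothelial cells (72.5 to 79.0) and 33.9% of control fibroblasts (31.1 to 36.8), and in 75.4% and 54.4% in the SM22-SmoM2 library. At full depth, with medians of 9435 and 12464 UMIs per cell in the control library, the shares were 91.8% and 60.7%. At least 2 of the 8 genes were detected in 85.9% of control endothelial cells (597 of 695) and 82.2% of SM22-SmoM2 endothelial cells (217 of 264). In fibroblasts the shares were 21.2% (234 of 1104) and 29.9% (314 of 1050). Without thinning these 4 shares were 95.7%, 93.9%, 57.2% and 62.6%.

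Detection of 1 gene came with detection of the others. If the genes were detected independently of each other, the product of their shares would give 48.0 control fibroblasts with at least 3 genes and 402 with none. There were 117 and 541. The share with at least 2 genes showed no such excess. There were 234 control and 314 SM22-SmoM2 fibroblasts, where 243 and 328 were expected, and 597 and 217 endothelial cells, where 654 and 243 were expected. In SM22-SmoM2 fibroblasts, 130 cells had at least 3 genes, where 74.7 were expected from the product. At 5 or more genes, there were 22 control and 18 SM22-SmoM2 fibroblasts, where 0.393 and 0.780 were expected. Endothelial cells also spread beyond the product, on both sides. In the control library 460 endothelial cells had at least 3 genes (530 expected), 192 had at least 5 (132 expected), and 10 had all 8 genes (0.291 expected).

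The pair detected together most often relative to its product in endothelial cells was Ifit3 with Rsad2, in 69 control cells where 39.9 were expected (a ratio of 1.73) and in 19 SM22-SmoM2 cells where 10.4 were expected (1.82). All 28 pairs were above 1 in both endothelial samples. In control fibroblasts, 18 of the 19 pairs with at least 5 expected cells were above 1, with a median of 2.32 and the highest value, 4.67, for Ifit3 with Usp18. Ifit1 and Ifit3, neighbours on chromosome 19, were together in 33 control fibroblasts where 8.24 were expected and in 28 SM22-SmoM2 fibroblasts where 7.33 were expected. Isg15 with Gbp2 was the pair at its product, in 21 control fibroblasts where 21.3 were expected.

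The tenth of control fibroblasts with the most UMIs of the 8 genes held 52.9% of these UMIs after thinning, and 1 fibroblast had 48 of them in 2500. The tenth held 42.5% in SM22-SmoM2 fibroblasts and 29.5% and 29.1% in endothelial cells of the control and SM22-SmoM2 library. Cells of 1 sex or 1 cluster were then counted on their own. Within male control fibroblasts 29 cells had at least 3 genes (9.34 expected), and within female ones 66 (56.2 expected). Within cluster 4 of the control library the counts were 9 male cells (4.75 expected) and 33 female cells (30.1 expected). In the SM22-SmoM2 library, 101 male fibroblasts had at least 3 genes (59.6 expected). By cluster, that library had 64 such cells in cluster 6 (47.1 expected), 20 in cluster 5 (19.2) and 14 in cluster 9 (12.6). It had 19 in cluster 4 (12.1), 8 in cluster 8 (1.59) and 5 in cluster 10 (1.20). The share with at least 3 genes was 4.44% of male and 29.6% of female control fibroblasts.

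**Figure D5:**
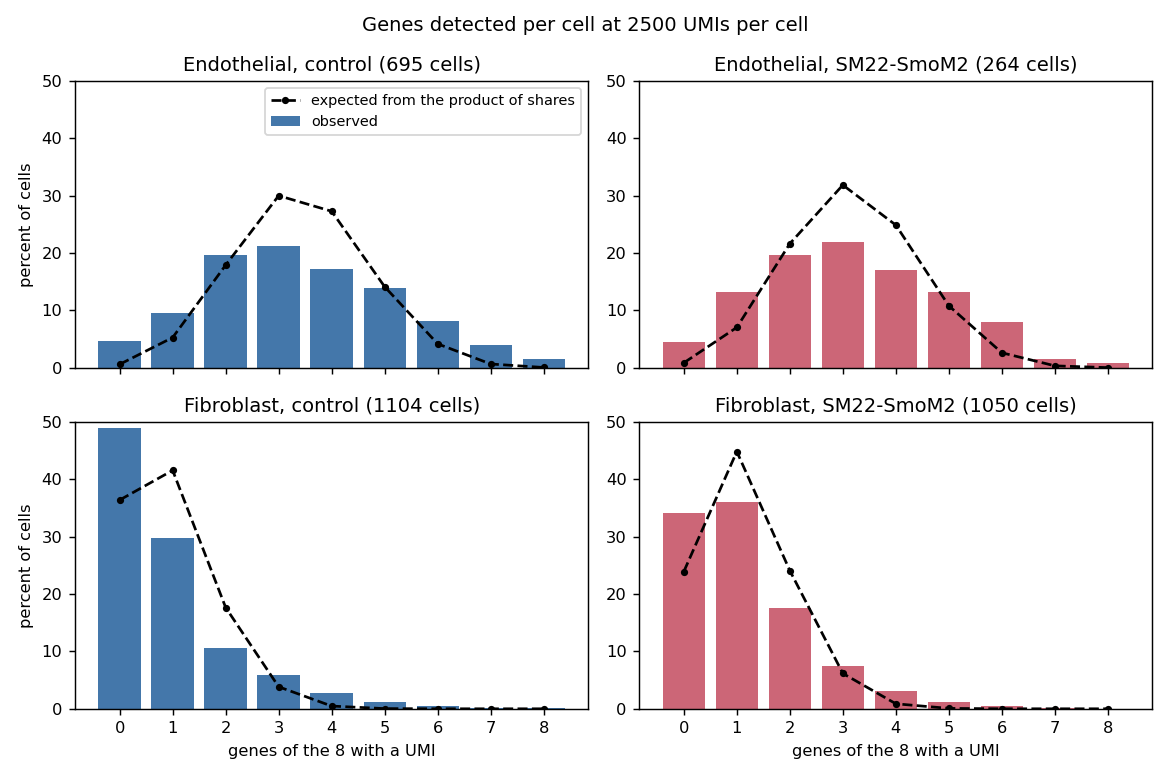
Percent of cells with 0 to 8 of the genes detected at 2500 UMIs per cell (bars) and percent expected from the product of the single-gene shares (dashed line), for endothelial cells (top) and fibroblasts (bottom) of the control (left) and SM22-SmoM2 (right) library. Cells with 0 genes, and cells with 6 or 7 genes, exceed the expected numbers in all 4 panels.

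Other genes that accompanied the 8 were sought by comparing fibroblasts with at least 3 of them and fibroblasts with none. In control fibroblasts the 10 with the highest ratios were Ifit3b, Gm4951, C4b, Slfn2, Ddx60, Oas1a, Dtx3l, Gbp3, Xist and Zbp1. Of these, 5 were on the lists of interferon-induced genes used here. Besides the 8 genes, 7047 genes were ranked, and the interferon pathway lists hold 93 genes with the 8 included. Xist, by which female cells were called, had 133 UMIs in 117 cells and 78 UMIs in 541 cells. Among the 5 was Ifit3b, the near-identical copy of Ifit3, so that its place in the ranking may not be independent of the 8 genes. C4b, a complement gene, had 164 and 14.05 CPM. In SM22-SmoM2 fibroblasts, with 6112 genes ranked, the 10 were Ifit3b, Eln, Ifi204, Zbp1, Igtp, Phf11d, Plac8, Trim12a, Ifi47 and Cpxm2. Ifit3b, Ifi204, Zbp1, Igtp and Phf11d were on the lists. Eln encodes elastin and had 262 and 16.8 CPM. The ranking pools all fibroblast clusters, and Eln is also a leading gene of cluster 5. At least 3 genes were detected in 23.3% of SM22-SmoM2 cells of cluster 5 and in 3.2% of those of cluster 8. Whether Eln went with the 8 genes within a cluster was not tested. Only 32 control and 12 SM22-SmoM2 endothelial cells had none of the 8 genes, so that most endothelial rankings rested on 1 to 3 UMIs in those cells. Across the 31 sums of a cluster in a library, the genes whose level was most like the mean of the 8 were Ifi47 (Pearson r = 0.96), Oasl2 (0.95), Bst2, Rnf213, Samd9l, H2-T22, Ifih1, Ddx58, Tor1aip1 and Gm4951. These sums share libraries and vary in depth, and r is given as a description. Of the members, Ifit1 was closest to the mean (0.94) and Gbp2 farthest (0.68).

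Wider gene lists placed the 8 genes in the pathway. Of 38 type I interferon-induced genes with at least 10 UMIs, 33 were at least 2-fold higher in control endothelial cells than in control fibroblasts, against 23.8% of all genes, with a median log2 ratio of 2.10 against 0.21. For guanylate-binding proteins, immunity-related GTPases and other genes induced by interferon gamma, 16 of 18 were (median 3.09), and for antigen presentation 10 of 12, against the same 23.8%. Between the genotypes, the type I list had a median of −0.79 in Schwann cells, with 13 of 36 genes at least 2-fold lower, against 4.99% of all genes and a median of −0.07. The interferon gamma list had −0.76 there, with 6 of 17 lower, against the same 4.99%. In endothelial cells the medians were −0.16 and −0.13, in fibroblasts 0.27 and 0.23, and in muscle cells 0.31 and 0.09.

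Upstream of these genes, the interferon receptors and their kinases had a median of −0.30 in Schwann cells, −0.23 in endothelial cells, −0.36 in fibroblasts and 0.12 in muscle cells, and the sensors of nucleic acids −0.28, 0.08, −0.19 and −0.06. In endothelial cells, the receptor subunit gene Ifnar1 had 53.7 and 37.2 CPM (−0.53, −0.88 to −0.19) and Ifnar2 123 and 147 CPM (0.25, 0.07 to 0.43), and the kinase gene Jak1 had 228 and 250 CPM. The sensor adaptor Tmem173 (STING) had 67.4 and 71.0 CPM. Among effectors, Ifi203 had 364 and 523 CPM (0.52, 0.43 to 0.62), Ifi44 had 150 and 163 CPM, and Oas2, an RNA-sensing synthetase, 46 and 1 UMIs (−3.71, −9.05 to −1.16). The GTPase genes Gbp9 (182 and 119 CPM) and Gbp5 (30.9 and 19.9 CPM) were lower, as Gbp2 was, and Tgtp1 (18.1 and 30.3 CPM) and Tgtp2 (12.2 and 23.8 CPM) were higher. In antigen presentation, H2-D1 had 5411 and 4222 CPM and B2m 6159 and 5544 CPM, and the list had medians of −0.24 in endothelial cells, −0.40 in fibroblasts, −0.58 in Schwann cells and 0.01 in muscle cells.

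Lists outside the interferon response were read for inflammation and for stress of cell dissociation. NF-kappaB-induced genes had a median of −0.09 in endothelial cells, −0.11 in fibroblasts, −0.27 in Schwann cells and 0.07 in muscle cells. In endothelial cells the chemokine gene Cxcl1 had 310 and 418 CPM (0.43, 0.32 to 0.54) and Selp, the gene of P-selectin, 202 and 155 CPM. Immediate early genes had medians of 0.08, 0.61, −0.27 and 0.05. In fibroblasts, Schwann cells and muscle cells their median had the same sign as the ratio of the summed 8 genes, and in endothelial cells the opposite sign. Their part in the differences was not tested. Comparing female with male control cells, the type I list had a median of 1.31 in fibroblasts (25 of 37 genes at least 2-fold higher, against 5.01% of all genes), 1.06 in Schwann cells (20 of 35, against 4.41%), 0.72 in muscle cells and 0.16 in endothelial cells. The receptor list had −0.07 in fibroblasts and 0.13 in Schwann cells.

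Interferons themselves were barely captured. Of 19 interferon genes, 6 had any UMI, with 51 UMIs in the control and 1 in the SM22-SmoM2 library. Ifng made up 46 of the control UMIs, 40 of them in 1 immune cell of cluster 18 and 6 in 5 fibroblasts of cluster 7, and it gave the 1 UMI of the SM22-SmoM2 library. Ifne, Ifnk, Ifnl2, Ifnl3 and Ifna16 had 1 UMI each in the control library. Ifnb1 had 0 UMIs in both libraries, which does not show that it was absent. Cells with a UMI of Ptprc, Cd68, Cd74 or Tyrobp, which could hold immune RNA, were 21.3% of control and 10.8% of SM22-SmoM2 fibroblasts. The 8 genes summed to 536 CPM in these control fibroblasts and 563 CPM in the others, and to 833 and 877 CPM in the SM22-SmoM2 library. In endothelial cells the sum was higher in those with such a UMI, at 3445 CPM against 2950 CPM in the control library and 2935 against 2633 CPM in the other. In Schwann cells without such a UMI the sum was 1387 CPM in the control and 558 CPM in the SM22-SmoM2 library, and in those with one it was 1132 and 294 CPM.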

How the data were processed

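Tomato+ dermal cells were profiled by 10x Chromium 3' v2 single-cell RNA sequencing in 1 control and 1 SM22-SmoM2 library. The authors processed reads with bcl2fastq and Cell Ranger against mm10 (GRCm38), and what they deposited are UMI counts, unnormalized whole numbers for each gene in each cell. The versions and the annotation used are not given in the sources used here. The listed barcodes cover the whole kit, so barcodes shared by the libraries were not counted. Of 2878 and 1802 cells, those with under 200 genes or over 10% mitochondrial UMIs were left out here (22 and 10). Cells had 3128–65167 UMIs in the control and 2538–38806 in the SM22-SmoM2 library.

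For k-means clustering (K = 20, 50 starts, scikit-learn 1.9.0, scanpy 1.11.5), each cell was scaled to 10000 and logged. The 2000 most variable genes were reduced to 20 principal components, with 93 genes of the interferon pathway left out. These were the 8 genes and the listed interferon-induced, antigen presentation, interferon receptor and ligand genes. Sex-linked genes were not left out, nor were genes outside the lists, such as Ifi47. Clusters were named by the marker list that scored highest, with at least 3 markers at 10 CPM and 1.5 times their median over clusters. Doublets were kept. UMIs were summed per gene, cell type and library, and log2 ratios of CPM carry exact 95% intervals (scipy 1.17.1). A count of 0 was taken as 3 UMIs, and no ratio was made where both counts were 3 or fewer. Shares of genes past 2-fold are over genes with at least 10 UMIs. Cells are not replicates, and no p-values were computed. Cells with Y-linked UMIs and no Xist were called male and those with Xist and no Y-linked UMIs female. Expected co-detection is the product of the single-gene shares.

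Besides the 8 genes, the text names from each list the 3 highest and 3 lowest log2 ratios in endothelial cells with at least 20 UMIs, or a selection of these, interferon genes with a UMI, the 10 genes most alike over clusters (log2 of CPM + 10, at least 200 UMIs), and the 10 with the highest ratio between cells with at least 3 of the genes and none. The 8 genes, the lists and the rules were chosen with earlier results of these data known. Ratios and intervals were tried on simulated Poisson counts, the model that the intervals assume. In fibroblasts, with 200 of 11497 genes changed 2-fold, the direction was right for 100%. The interval held the true value for 93.5% of changed genes. Such counts lack the spread between real cells, where the thinned sum of the 8 genes had a variance over mean of 5.46 in control fibroblasts. The simulation therefore cannot show how well the intervals hold for these cells. Gene IDs were matched to GENCODE M21, where 27645 of 27998 were found. Alternatives were other mitochondrial filters, clusterings, cell subsets, depths and ways of summing.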

Additional observations from a re-analysis of the deposited data

Results flagged for a closer look

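The summed level of the 8 genes moved in opposite directions in 2 cell types, with a log2 ratio of SM22-SmoM2 over control of −1.338 in Schwann cells and 0.6471 in fibroblasts. With 1 library per genotype the difference between the cell types was not tested. The same holds for the other contrasts given here, which were picked because their values had opposite signs.

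The contrast of genotypes had opposite signs in male and female cells, at 1.43 and −1.898 in fibroblasts and at 0.3574 and −0.8434 in muscle cells. The difference was not tested. The contrast of female over male cells had opposite signs in the libraries, at 2.078 in control and −1.249 in SM22-SmoM2 fibroblasts, at 1.026 and −0.1868 in Schwann cells, and at 0.8255 and −0.3753 in muscle cells, and these differences were not tested either. Female SM22-SmoM2 cells were few, with 46 fibroblasts and 21 muscle cells, and the interval of the SM22-SmoM2 Schwann value included 0. In endothelial cells both contrasts had the same sign in both of the groups compared.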

How the results depend on the processing

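Of 158 alternatives, 100 moved a value by no more than its counting interval, 52 moved it further and 6 turned its direction. No paired analysis was possible because each genotype has 1 library, and for the same reason no replicate could be left out. The cause of these changes was not tested. The Schwann ratio of −1.34 became −0.81 in male cells, −2.02 in female cells, −1.58 without the highest gene and −1.50 both as the median of the genes and with the sexes weighted equally. The endothelial ratio of −0.20 became −0.27 in female cells, −0.16 as the mean of per-cell CPM and −0.29 without the highest gene. The fibroblast ratio of 0.65 was 1.43 in male cells and turned to −1.90 in female cells and −0.45 with the sexes weighted equally. It was 0.79 with K = 12, 0.46 both with thinned cells and as the mean of per-cell CPM, 0.24 without the highest gene, 0.39 as the median of the genes and 0.37 in the clusters that held 30 or more cells from both libraries. The muscle ratio of 0.25 turned to −0.033 with a 5% mitochondrial filter, −0.15 with K = 30, −0.84 in female cells and −0.29 with the sexes weighted equally, and was 0.084 with K = 12 and 0.36 in male cells.

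Endothelial over fibroblast cells stayed above 0 throughout. The control ratio of 2.48 was 2.39 without cells holding immune UMIs, 3.12 in male and 1.44 in female cells, 2.57 without the top 1% of cells, 2.38 with thinned cells, 2.36 as the mean of per-cell CPM, 2.97 without the highest gene, 2.41 as the median of the genes, 2.04 in shared clusters and 1.95 with the sexes weighted equally. The SM22-SmoM2 ratio of 1.62 was 1.47 with K = 12, 1.48 in male and 3.07 in female cells, 1.70 without the top 1% of cells, 1.75 with thinned cells, 1.74 as the mean of per-cell CPM, 2.44 without the highest gene, 1.76 as the median of the genes, 1.46 in shared clusters and 2.15 with the sexes weighted equally.

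Shares of cells with at least 2 genes followed depth. At 1500 UMIs and without thinning they were 72.1% and 95.7% in control and 68.2% and 93.9% in SM22-SmoM2 endothelial cells, and 15.04% and 57.2% in control and 18.4% and 62.6% in SM22-SmoM2 fibroblasts. Control endothelial cells had 82.0% with no mitochondrial filter and 94.5% in female cells, SM22-SmoM2 endothelial cells 74.4% in female cells, control fibroblasts 12.4% in male and 50.7% in female cells, and SM22-SmoM2 fibroblasts 35.1% with K = 12 and 6.52% in female cells. With at least 50 UMIs per gene, the share of all genes past 2-fold between the genotypes was 2.2% in endothelial, 9.68% in fibroblast, 3.01% in Schwann, 4.12% in muscle and 9.03% in immune cells, against 7.27%, 14.9%, 8.19%, 11.7% and 20.5%. The equal weighting of sexes and the shared clusters were chosen after seeing the data. Scrublet marked 0.210% and 0.558% of cells, so that leaving these out says little about doublets.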
